A study of Drosophila melanogaster with 7 samples.

Results

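The genes of the m6A writer complex were examined for binding of CLAMP, a zinc-finger protein that recognises stretches of GA repeats and is needed for dosage compensation in male flies. The 6 genes were chosen by name, as subunits of the complex, from 17684 genes on the main chromosome arms: Mettl3, Mettl14, fl(2)d, vir, nito and Flacc. The assay was CUT&RUN, in which a nuclease tethered to an antibody cuts out bound DNA for sequencing, applied to unfixed cells of 2 embryonic *Drosophila melanogaster* lines, the male line S2 and the female line Kc. The groups were S2 with anti-CLAMP antibody (3 libraries), Kc with anti-CLAMP antibody (2 libraries), and S2 and Kc with control rabbit IgG (1 library each). A further Kc library was dropped by the submitters for lack of material. The labels give no treatment for either line, and the series asked where CLAMP binding differs between them. A gene was counted as holding a peak when a called interval shared at least 1 bp with the gene body extended by 500 bp at each end, in dm6 coordinates.

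The writer complex places a methyl group on the N6 position of adenosines in messenger RNA. Mettl3 is the methyltransferase and Mettl14 its partner; fl(2)d, vir, nito and Flacc belong to the adaptor part of the complex, which brings the enzyme to its RNA. In flies the mark takes part in the female splicing of Sxl, the switch gene of sex determination, through the nuclear reader Ythdc1. A peak says that a protein was found at the DNA of a gene, and the lists hold no expression or methylation values, so neither the identity of the lines nor the activity of the complex could be checked from them.

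Peaks on the main arms numbered 5535 to 8904 in the S2 CLAMP lists and 8769 and 9832 in the Kc CLAMP lists, with 1165 for S2 IgG and 8615 for Kc IgG. S2 replicate 3 stood apart from the other CLAMP libraries: 32.7% of its peaks had a q-value of 0.0001 or less, against 53.7% to 76.4% in the other 4. Its title and its deposited list also carry different internal numbers, so the differences between the lines are given with and without it. The number of reads is unknown, and nothing says that the libraries came from separate cultures, so spread between them may be technical. Each peak's fold over the caller's background is the authors' own value, and folds are given for single peaks but compared between libraries only through the percentile of a peak among all peaks of its library. At roX2, a known CLAMP-bound gene, the percentile was 96.1, 97.6 and 97.0 in S2 and 83.3 and 91.1 in Kc, so S2 replicate 3 did hold a strong peak there. At roX1, the other roX gene, it was 90.7, 97.1 and 87.0 in S2, with no peak in either Kc CLAMP library and an S2 IgG peak at percentile 26.9.

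CLAMP peaks were called at 5 of the 6 genes and IgG peaks at none. Mettl3 held a peak in all 5 CLAMP libraries, fl(2)d and Flacc in 3, nito in 2, vir in 1 and Mettl14 in none. By library, 5, 3 and 1 of the 6 genes held a peak in S2 replicates 1 to 3, against 2 and 3 in Kc replicates 1 and 2. The share of all genes with a peak was 33.1%, 23.9% and 15.4% for S2 replicates 1 to 3, 26% and 25.9% for Kc replicates 1 and 2, 3.47% for S2 IgG and 20.2% for Kc IgG. Among the 6509 protein-coding genes in the length range of the writer genes, 1535 to 7343 bp, a background added after the data were seen, the shares were 38.4%, 23.8% and 14.8% for S2, 27.9% and 27.6% for Kc, 1.63% for S2 IgG and 20.9% for Kc IgG. The share of the 6 genes was thus above both backgrounds in all 5 CLAMP libraries, but within about 1 gene of them in S2 replicate 3 and Kc replicate 1. The single call in S2 replicate 3 was a Mettl3 peak that did not pass a q-value of 0.0001. At that threshold S2 replicate 3 held 0 of the 6 genes, against 5.94% of all genes. A single gene makes up 16.7% of the 6, so these shares are coarse.

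Counted over libraries, 48.2% of all genes had at least 1 CLAMP library with a peak, 22.5% had at least 3 and 6.28% had all 5. In the length range these shares were 55.7%, 23% and 3.93%, against 5, 3 and 1 of the 6 writer genes. An IgG peak of either line was found at 21.8% of all genes and 22.1% of those in the length range, and at none of the 6.

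**Figure D1:**
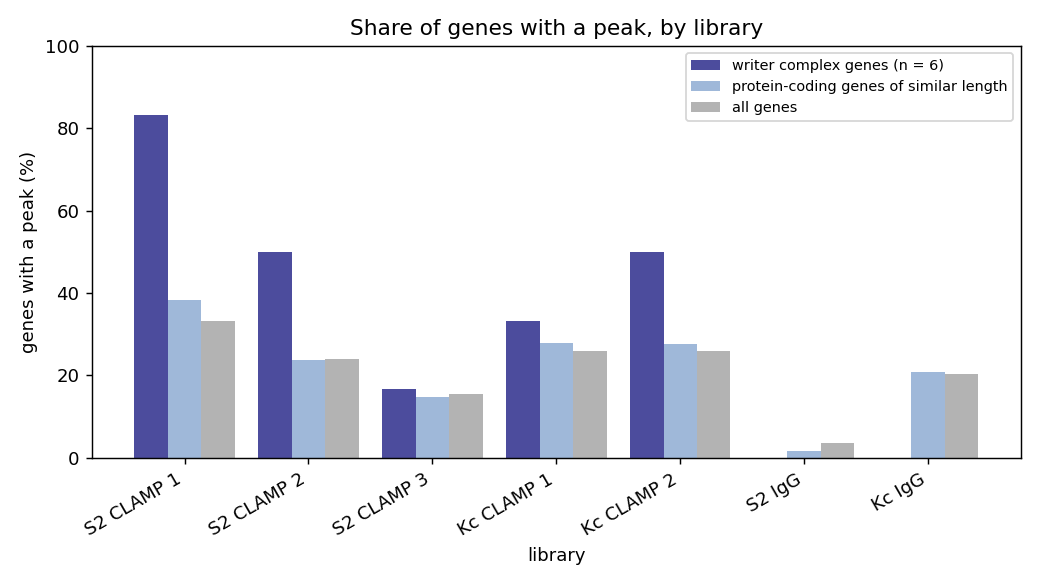
Percentage of genes with a called peak (y axis) in each of the 7 libraries (x axis), for the 6 writer complex genes, for protein-coding genes of 1535 to 7343 bp and for all genes. The writer genes reach 83.3% in S2 replicate 1 and 50% in S2 replicate 2 and Kc replicate 2, stand at 16.7% in S2 replicate 3, and have no bar in either IgG library.

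The number of writer genes with a peak did not separate the lines. It averaged 3 ± 2 in S2 against 2.5 ± 0.707 in Kc (SD, n = 3 and 2), and the single libraries of S2 spanned all values of Kc. Without S2 replicate 3 the S2 mean was 4, and without S2 replicate 1 it was 2. When peaks had to reach a q-value of 0.0001, 4, 3 and 0 of the 6 genes held one in S2 replicates 1 to 3, 1 and 2 in Kc replicates 1 and 2, and none in IgG. The same threshold was passed at 28.7%, 21.7% and 5.94% of all genes in S2, 16.2% and 21.5% in Kc, 2.99% in the S2 IgG library and 7.7% in that of Kc. The genes kept at that threshold were Mettl3, fl(2)d, nito and Flacc in S2 replicate 1, Mettl3, fl(2)d and Flacc in S2 replicate 2, Mettl3 in Kc replicate 1, and Mettl3 and fl(2)d in Kc replicate 2.

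**Figure D2:**
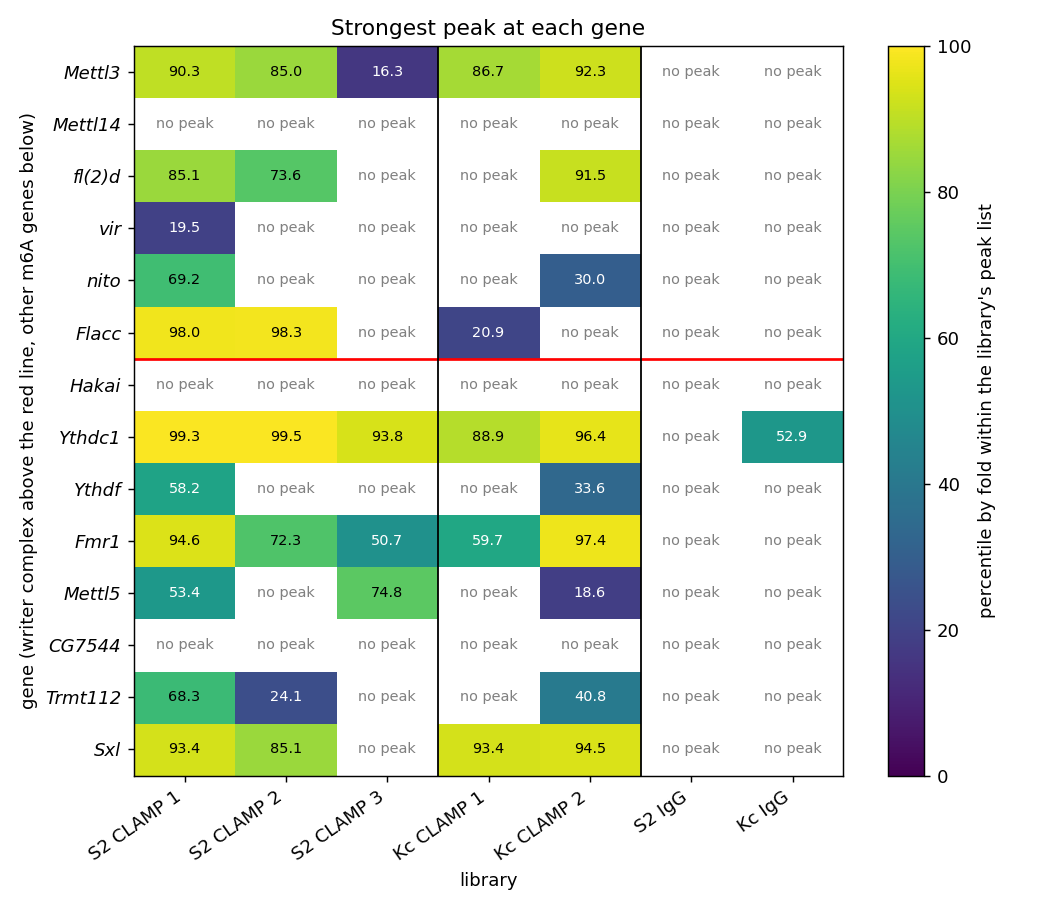
Percentile, by fold within the library's own list, of the strongest peak at each gene (rows) in each library (columns), with the writer complex above the red line and other genes of the m6A pathway below it. Flacc is at 98.0 and 98.3 in S2 replicates 1 and 2 and at 20.9 in Kc replicate 1, while Mettl3 is above 84 in those S2 libraries and in both Kc libraries.

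Mettl3, the catalytic subunit (3R 24032157 to 24034257), had its CLAMP peaks beside the gene and not over it in 4 of the 5 libraries. The strongest peak at the gene stood at percentile 90.3, 85.0 and 16.3 in S2 replicates 1 to 3 and at 86.7 and 92.3 in Kc replicates 1 and 2. S2 replicate 3 was thus the single low library, with S2 replicate 1 between the 2 Kc values and S2 replicate 2 just below them. The mean was 63.8 ± 41.2 in S2 against 89.5 ± 3.97 in Kc (SD, n = 3 and 2), a difference of -25.6 points that did not exceed the spread (exact two-sided permutation p = 0.6 over the 10 ways to divide the 5 libraries, for which the smallest possible p is 0.1). Without S2 replicate 3 the difference was -1.88 points, and without S2 replicate 1 it was -38.9 points.

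The other 4 libraries marked the same place at Mettl3. Their peaks merged into a region of 1010 bp at 3R 24031061 to 24032070, which ended 87 bp below the lower end of the gene and covered the upper end of KrT95D. The main summit lay 542 and 723 bp below Mettl3 in S2 replicates 1 and 2 and 617 and 511 bp below it in Kc replicates 1 and 2, in each case inside KrT95D. A weaker summit lay in the 330 bp between KrT95D and Mettl3 in 3 of these libraries, at 239 and 213 bp below Mettl3 in S2 replicates 1 and 2 and at 206 bp in Kc replicate 2. The fold of this weaker summit was 2.96 and 1.91 in S2 and 2.75 in Kc, against 5.94, 5.01 and 5.17 at the main summit of the same libraries. In Kc replicate 1 the single summit had a fold of 2.82.

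By p-value the main Mettl3 peak ranked 642 of 8904 and 1404 of 8801 in S2 replicates 1 and 2 and 1469 of 9832 and 844 of 8769 in Kc replicates 1 and 2. The peak of S2 replicate 3 was of another kind: it lay inside the gene at 3R 24034017 to 24034216, with its summit 146 bp below the upper end, a fold of 1.77 and rank 4948 of 5535. Counted over the gene body alone, Mettl3 therefore held a peak in S2 replicate 3 and in no other library. The nearest IgG peaks were 45735 bp away in S2 and 41675 bp away in Kc.

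Mettl14, the partner of the methyltransferase (2L 8308427 to 8309961), was the one writer gene without a peak in any of the 7 libraries. At 1535 bp it is also the shortest of the 6. Its nearest CLAMP peaks lay 7364, 15872 and 2190 bp away in S2 replicates 1 to 3 and 7349 and 7421 bp away in Kc replicates 1 and 2. In S2 replicates 1 and 2 and both Kc libraries these were peaks at Btk, a tyrosine kinase gene, and in S2 replicate 3 the peak was at CG7840. Since the depth is unknown, the lists show that no peak was called at Mettl14, not that CLAMP is absent there.

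Among the adaptor genes, fl(2)d (2R 13819624 to 13824553), the fly counterpart of human WTAP, had its strongest peaks inside the gene. Its strongest peak stood at percentile 85.1 and 73.6 in S2 replicates 1 and 2 and at 91.5 in Kc replicate 2, and no peak was called in S2 replicate 3 or Kc replicate 1. Each line thus had libraries with and without the peak, and the difference of 7.14 points did not exceed the spread (52.9 ± 46.2 for S2 against 45.8 ± 64.7 for Kc, SD, n = 3 and 2, exact two-sided permutation p = 1). The value rested on single libraries: it was -8.96, -3.22 and 33.6 points without S2 replicates 1, 2 and 3 in turn, and -38.6 and 52.9 points without Kc replicates 1 and 2. The summits of the 3 libraries fell within 23 bp of one another, 138 and 158 bp below the upper end of the gene in S2 replicates 1 and 2 and 135 bp below it in Kc replicate 2. This region spanned 647 bp at 2R 13823899 to 13824545 and overlapped no other gene, CG13339 beginning 305 bp beyond fl(2)d.

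The fold at that place was 4.85 and 3.48 in the S2 libraries and 4.94 in Kc replicate 2. A second region in the middle of fl(2)d, 2R 13822307 to 13823116, was held by S2 replicate 1 with a fold of 2.34 and by Kc replicate 2 with a fold of 2.93. Kc replicate 2 alone had a further weak peak below the gene, over the end of stj, with a fold of 1.75. Kc replicate 1, which had no peak in the window, had one 905 bp above the gene at CG13339, so a flank of 1000 bp in place of 500 bp gave fl(2)d a peak in both Kc libraries and turned the difference to -20.7 points. The nearest Kc IgG peak lay 1575 bp from the gene and the nearest S2 IgG peak 18150 bp.

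Flacc, which links nito to fl(2)d (X 18888978 to 18893636), carried the peaks with the highest fold among the 6 genes in S2 replicates 1 and 2. Its percentile was 98.0 and 98.3 in S2 replicates 1 and 2, with no peak in S2 replicate 3, and 20.9 in Kc replicate 1, with no peak in Kc replicate 2. S2 replicates 1 and 2 lay above both Kc libraries, but S2 replicate 3 tied with the lower one, so the lines overlapped. The means were 65.4 ± 56.7 in S2 against 10.5 ± 14.8 in Kc (SD, n = 3 and 2), a difference of 55.0 points (exact two-sided permutation p = 0.4, adjusted p = 0.976 by the Benjamini-Hochberg method over 8532 genes with a CLAMP peak). Without S2 replicate 3 the difference was 87.7 points, with an exact two-sided permutation p of 0.333, the smallest possible with 2 libraries a line.

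The main Flacc summits of S2 replicates 1 and 2 lay 640 and 645 bp below the lower end of the gene, only 5 bp apart. Their folds were 9.94 and 13.6 and their ranks by p-value 681 of 8904 and 450 of 8801. In Kc replicate 1 the peak was narrower, 254 bp against 794 and 882 bp in those S2 libraries, with its summit 269 bp below the gene, a fold of 1.79 and rank 8837 of 9832. It did not pass a q-value of 0.0001. All of these peaks ended at least 109 bp short of Flacc and lay over the upper part of CG7332, which contains every one of their summits. The nearest peaks of the libraries without one in the window were 131113 bp away in S2 replicate 3 and 23845 bp away in Kc replicate 2, and the nearest IgG peaks 6465 bp away in S2 and 2368 bp away in Kc.

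When each peak was given only to the gene nearest its summit, an alternative chosen after the data were seen, Flacc held no peak in any library and Mettl3 held the one of S2 replicate 3. With the strongest summit of a peak required to lie within 500 bp of the gene, Flacc kept the peak of Kc replicate 1 alone, and its difference became -10.5 points. The gene table gives no strand, so which genes start at these places cannot be read from it.

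The RNA-binding subunit nito (2R 7962463 to 7969805) held peaks in 1 library of each line. Its strongest peak stood at percentile 69.2 in S2 replicate 1 and at 30 in Kc replicate 2, and the other 3 CLAMP libraries had none. The difference was 8.06 points (23.1 ± 39.9 for S2 against 15.0 ± 21.2 for Kc, SD, n = 3 and 2, exact two-sided permutation p = 1). Leaving out S2 replicates 1, 2 and 3 in turn gave -15.0, 19.6 and 19.6 points, and leaving out Kc replicates 1 and 2 gave -6.95 and 23.1 points. The peaks of the 2 libraries overlapped just below the gene, at 2R 7961931 to 7962428, in the 542 bp between Septin5 and nito. Their main summits lay 183 bp below the gene in S2 replicate 1 and 213 bp below it in Kc replicate 2, with folds of 3.22 and 1.96. Each library also had a weak peak inside nito, at different places, with folds of 1.94 in S2 replicate 1 and 1.96 in Kc replicate 2, where nito overlaps CG8726. Only the peak of S2 replicate 1 below the gene passed a q-value of 0.0001. The nearest peaks of the other libraries lay 2394 and 4654 bp from nito in S2 replicates 2 and 3 and 2807 bp from it in Kc replicate 1, and the nearest Kc IgG peak lay 1329 bp away, at Septin5.

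The gene for the large scaffold subunit, vir (2R 23360192 to 23366355), held a single weak peak. It was called in S2 replicate 1 at percentile 19.5, with a fold of 1.85 and rank 7956 of 8904, and the other 2 S2 libraries and both Kc libraries had none. The difference was 6.51 points, or 9.77 points without S2 replicate 3 (exact two-sided permutation p = 1 with it). Its summit lay 279 bp above the upper end of vir and 232 bp from Ice1, and the peak did not pass a q-value of 0.0001. The nearest CLAMP peaks of the other libraries were 188148 and 20066 bp away in S2 replicates 2 and 3 and 37556 and 36820 bp away in Kc.

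**Figure D3:**
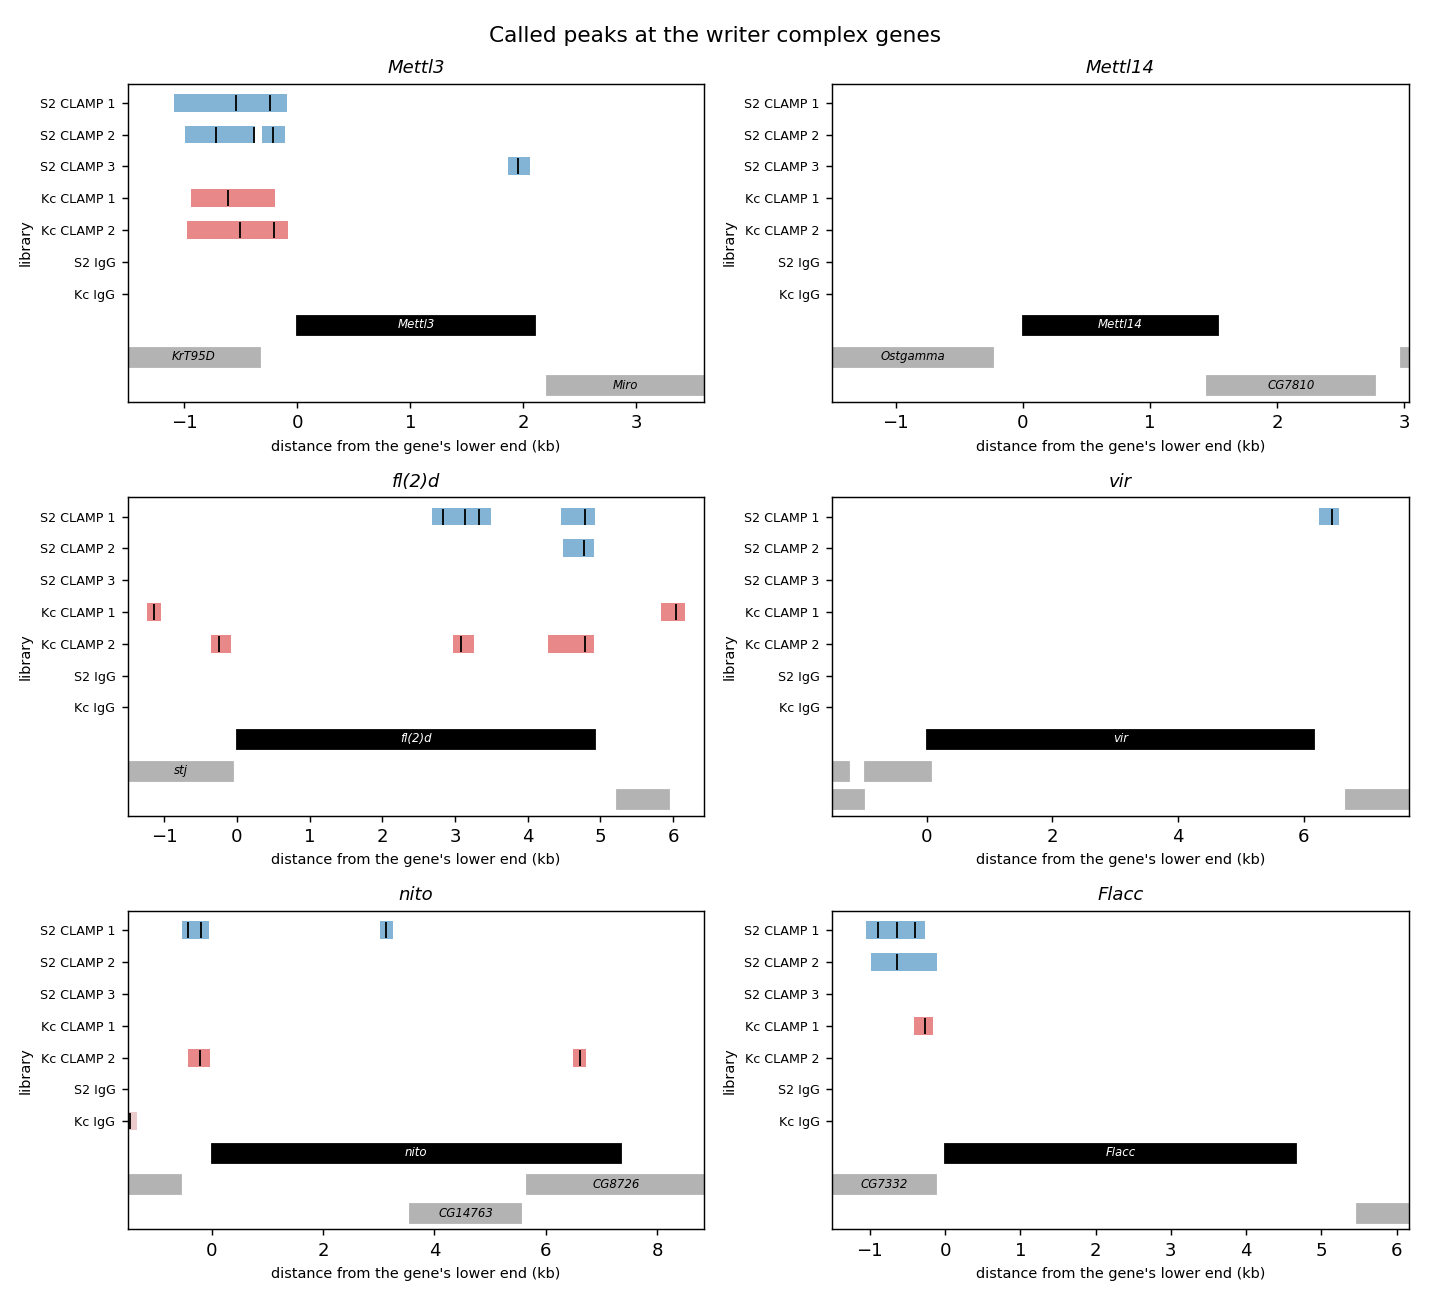
Called peaks (coloured bars) and their summits (black ticks) by library at the 6 writer genes, with distance from the lower end of the gene in kb on the x axis, the gene in black and its neighbours in grey. The bars at Flacc and, except in S2 replicate 3, at Mettl3 lie to the left of the gene, over its neighbour or, for the second bar of S2 replicate 2 at Mettl3, between the genes, the strongest of fl(2)d lie near the gene's upper end, and the panel of Mettl14 holds none.

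Together the 6 genes held 10 merged CLAMP regions. Of these, 5 were held by 1 library (50%, against 57.8% of all 19039 regions), none by all 5 (6.57% of all regions), none by all 3 S2 libraries without Kc and none by both Kc libraries without S2. None of the 10 overlapped an IgG peak of either line. Among all genes, 1.05% had a peak in all 3 S2 libraries and none in Kc, and 1.54% in both Kc libraries and none in S2 (1.29% and 2.24% in the length range), patterns that none of the 6 showed. Without S2 replicate 3, 1 region, that of Mettl3, was held by all remaining libraries.

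No peak lay over the gene body in 8 of the 14 combinations of a writer gene and a CLAMP library in which a peak had been counted. These were 3 of 5 genes in S2 replicate 1, 2 of 3 in S2 replicate 2, 0 of 1 in S2 replicate 3, 2 of 2 in Kc replicate 1 and 1 of 3 in Kc replicate 2. The 8 combinations came from Mettl3, Flacc and vir alone. The 14 are repeated calls on 5 genes and are not independent. Of all genes with a peak in these libraries, whatever their length, 28%, 23.4% and 24.3% had none over the body in S2 and 21.9% and 29.9% in Kc. The strongest summit lay 135 to 723 bp from the nearer end of the gene in the 14 combinations, and within 500 bp in 8 of them. Of protein-coding genes of similar length with a peak, 73.7%, 67.1% and 53.2% had it within 500 bp in S2 and 52.4% and 67.7% in Kc.

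No writer gene had all S2 libraries above all Kc libraries in percentile, or the reverse. Among the 8532 genes with a CLAMP peak 4.08% showed the first pattern and 9.21% the second. Flacc was the one writer gene with S2 replicates 1 and 2 both above both Kc libraries, as were 8% of all genes and 9.49% of those in the length range. These shares have a wider base that includes genes without a CLAMP peak. The 8% stands for 1414 of 17684 genes, all of them among the 8532 with a CLAMP peak. The reverse, both Kc libraries above S2 replicates 1 and 2, held for 894 genes. A permutation p of 0.1 was reached at 7.03% of the genes with a CLAMP peak and at no writer gene. Across all genes no p fell under 0.05, since none can with these 5 libraries, and the smallest adjusted p was 0.976.

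The genes most like Mettl3 in percentile over the 7 libraries, more than 5000 bp away from it, were Pka-C1, a protein kinase A catalytic subunit gene (summed difference 10.3 points), and ebd1 (14.7 points). For fl(2)d they were RpS14b, a ribosomal protein gene (6.46 points), and Slu7, a splicing factor gene (6.82 points). For Flacc they were the gene tRNA:Pro-CGG-1-1 (21.0 points) and bark (21.9 points), both with peaks in S2 replicates 1 and 2 and in no other library. This likeness is over single libraries, and with many genes at no peak it is a description of the lists.

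Of 8 other genes of the pathway, 6 held a CLAMP peak, 5 in at least 3 libraries and 2, Ythdc1 and Fmr1, in all 5. The matching shares of all genes were 48.2%, 22.5% and 6.28%. The median number of CLAMP libraries with a peak was 2.5 for the writer genes, 3 for these 8, 1 for protein-coding genes in the length range and 0 for all genes. The length range is that of the writer genes. It leaves out Sxl (23504 bp), Fmr1 (8702 bp) and Trmt112 (845 bp), so it is not matched to these 8. Hakai, a ubiquitin ligase associated with the writer complex, and CG7544, for which the gene table gives METTL16 as a synonym, had no CLAMP peak. The nearest peaks to Hakai lay outside its window, 1348 bp away in S2 replicate 2 with a fold of 20.7 and 1524 bp away in S2 replicate 3 with a fold of 4.93, in each case over CG10366. In S2 replicate 1 the nearest peak lay on the other side of Hakai, 3705 bp away with a fold of 4.35. The nearest in Kc replicates 1 and 2 lay on that side too, 3789 and 3723 bp away with folds of 1.89 and 3.82.

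Ythdc1, the nuclear reader through which the mark acts on Sxl (3L 3370451 to 3374170), held a strong peak at the same place in every CLAMP library. Its percentile was 99.3, 99.5 and 93.8 in S2 and 88.9 and 96.4 in Kc, so S2 replicate 3 and the Kc libraries overlapped (difference 4.85 points, 97.5 ± 3.21 for S2 against 92.7 ± 5.32 for Kc, SD, n = 3 and 2, exact two-sided permutation p = 0.3, adjusted p = 0.976). Leaving out S2 replicate 3 gave a difference of 6.70 points. The 5 summits fell within 27 bp, from 97 to 124 bp below the upper end of the gene. The fold there was 12.6, 18.9 and 3.32 in S2 and 2.94 and 7.15 in Kc, and all 5 peaks passed a q-value of 0.0001. The region, 3L 3373901 to 3374513, extends over the lower end of CG12010, which begins 112 bp beyond Ythdc1. A Kc IgG peak with a fold of 1.96 was called elsewhere in the gene, with its summit 1716 bp below the upper end, and did not overlap this region.

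The remaining readers and partners were less uniform. Fmr1, an RNA-binding protein gene, held a region at 3R 10109009 to 10110222 in all 5 libraries, with percentiles of 94.6, 72.3 and 50.7 for S2 replicates 1 to 3 and 59.7 and 97.4 for Kc. Ythdf, the cytoplasmic reader, held peaks in S2 replicate 1 and Kc replicate 2 alone, at 58.2 and 33.6. Mettl5, a ribosomal RNA methyltransferase gene, held peaks in S2 replicates 1 and 3 and in Kc replicate 2, at 53.4, 74.8 and 18.6, each with its summit also inside CG42374. Trmt112, its partner, held peaks in S2 replicates 1 and 2 and Kc replicate 2, at 68.3, 24.1 and 40.8, each with its summit inside Ilk. No difference between the lines at these 4 genes exceeded the spread, with exact two-sided permutation p from 0.4 to 1. With and without S2 replicate 3 the difference was -5.997 and 4.92 points for Fmr1, 2.59 and 12.3 for Ythdf, 33.4 and 17.4 for Mettl5, and 10.4 and 25.8 for Trmt112, so that of Fmr1 changed sign.

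Sxl itself, the splicing target, held peaks in 4 CLAMP libraries, with percentiles of 93.4 and 85.1 in S2 replicates 1 and 2, none in S2 replicate 3, and 93.4 and 94.5 in Kc. The strongest summits of the 4 libraries lay within 54 bp of one another, and Kc replicate 1 and S2 replicate 1 were equal to the first decimal. A second region, X 7095171 to 7095660, was called in Kc alone, with folds of 2.41 in Kc replicate 1 and 2.94 in Kc replicate 2. Of the 8 pathway genes, Sxl alone had all Kc values above all S2 values, a pattern of 9.21% of genes with a peak, and its difference of -34.4 points became -4.69 points without S2 replicate 3 (exact two-sided permutation p = 0.5 with it).

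**Figure D4:**
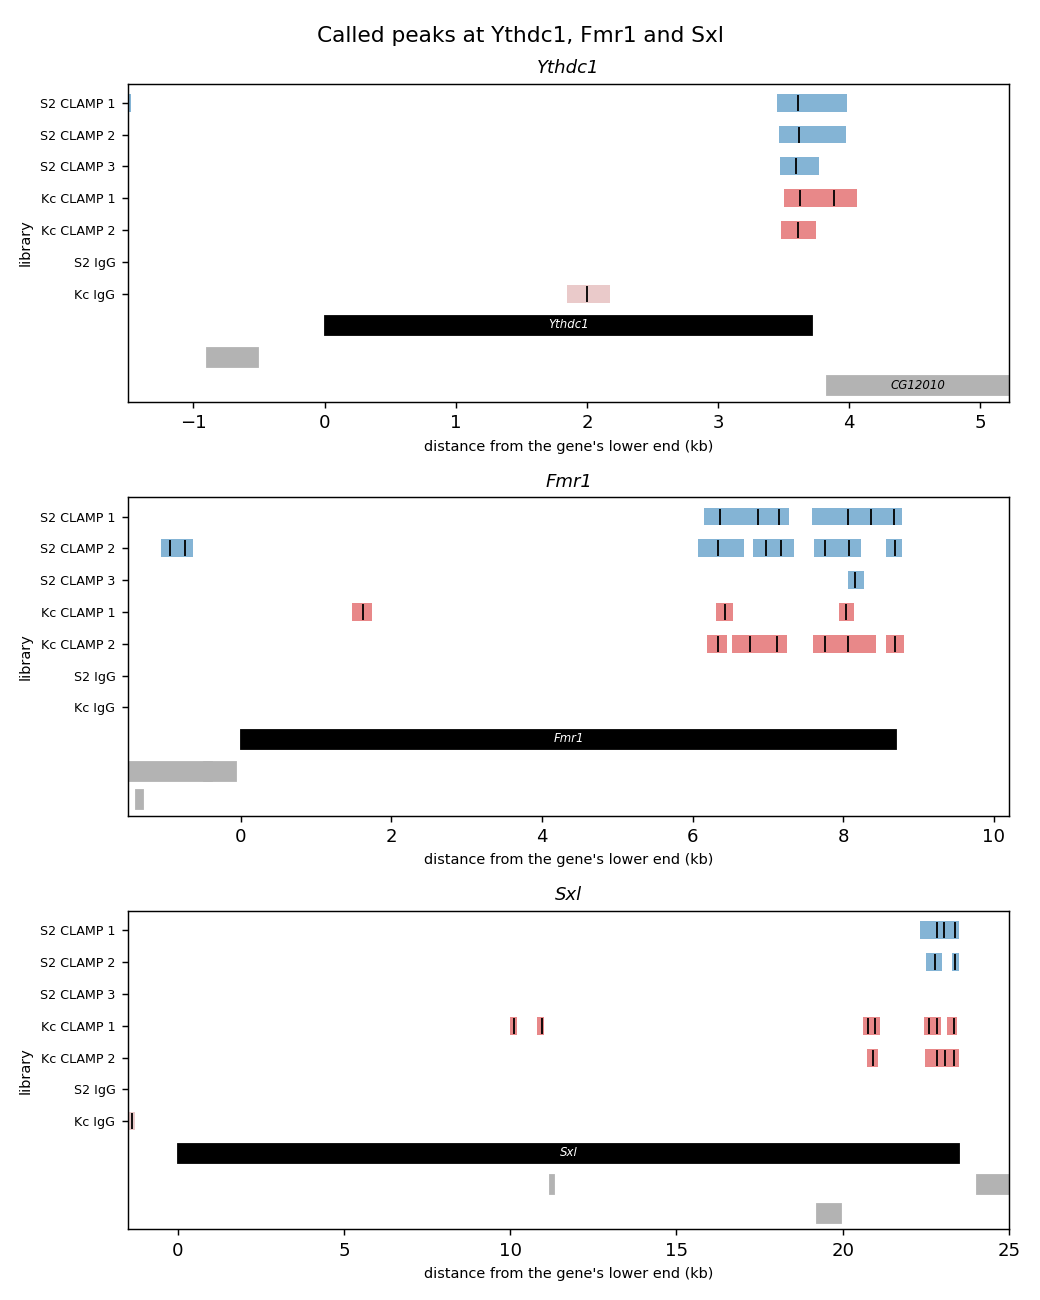
Called peaks (coloured bars) and summits (black ticks) by library at Ythdc1, Fmr1 and Sxl, with distance from the lower end of the gene in kb on the x axis. At Ythdc1 the summits of all 5 CLAMP libraries align within 27 bp near the upper end, and the Kc IgG peak lies apart from them.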

How the data were processed

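Per the labels' protocols, equal numbers of cells grown at 25 °C were used, and libraries from 1 ng of DNA with 14 PCR cycles were sequenced paired-end with 25 bp reads. FastQC, Trimmomatic, Bowtie2 and MACS2 were used with dm6, per the submitters' processing notes; not given in the sources used here are their versions, the control library of the peak calling and the handling of duplicates. The authors deposited 1 peak list for each library. The deposited fold is the ratio of summit signal to the caller's background, the deposited −log10 p-value and q-value belong to the summit, and the deposited score was not used.

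Rows with the same interval were joined, keeping the summit of the lowest p. Only the main chromosome arms were used. A gene's strength in a library was the percentile, by fold, of its strongest peak, and 0 without a peak. Gene positions came from RefSeq (assembly Release 6 plus ISO1 MT, whose arms are those of dm6); all 6 members and 8 further genes matched by symbol. The planned search for GA motifs in promoters was not run, and no sequence was used here. The exact permutation tests used Python 3.11.15 and numpy 2.4.6 and were tested on simulated data. The members, lists and tests were chosen with earlier results of these data known. Named genes were all members, the listed pathway genes, genes whose body or 500 bp flank shares a peak with a member, and the 2 genes most like Mettl3, fl(2)d and Flacc, with roX1 and roX2 as known CLAMP-bound genes. Btk, CG7840, CG10366, CG12010, CG42374 and Ilk were named for position after values were seen. Alternatives were a stricter q-value, equally long lists, other windows, ranking by p-value, summits, nearest genes and leaving out each library.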

Additional observations from a re-analysis of the deposited data

How the results depend on the processing

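The depth behind the lists is unknown, so a missing peak may be a matter of depth. No IgG peak was found at a writer gene with a CLAMP peak under any window or threshold tried. Only the 1000 bp flank could have added one, since the other settings narrowed the window or kept or shortened the IgG lists. The nearest Kc IgG peaks lay beyond that flank, 1329 bp from nito and 1575 bp from fl(2)d. The difference between S2 and Kc in the number of writer genes with a peak ranged from -0.5 (without S2 replicate 1) to 1.5 when each library was left out. For Mettl3 the percentile difference became 5.44 points over the gene body alone, 13.9 points by strongest summits in the window and 5.44 points by nearest gene. That of Flacc became -10.5 points by strongest summits in the window, and that of nito -6.79 points over the gene body alone. That of fl(2)d became -20.7 points with a 1000 bp flank. The rule by strongest summits passed over weaker summits in the same windows. At Mettl3 these lay 239 bp below the gene in S2 replicate 1 (fold 2.96) and 206 bp below it in Kc replicate 2 (fold 2.75). A separate peak of S2 replicate 2, 213 bp below Mettl3 (fold 1.91), was counted. At Flacc a weaker summit of S2 replicate 1, 402 bp below the gene (fold 3.69), was passed over. With each library left out, the difference ranged from -38.6 to 52.9 points for fl(2)d and from -15.0 to 23.1 for nito, changing sign for both, from -38.9 to -1.88 for Mettl3 and from 38.5 to 87.7 for Flacc. The windows change which neighbouring peaks are counted; the cause was otherwise not tested.

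The merged regions at the writer genes numbered 5 at a q-value of 0.0001 or less, 6 with equally long lists and 5 over the gene body alone, against 10. Left-out libraries gave 0 to 2 regions of Kc alone and 0 to 1 common to all. Genes with all S2 libraries above Kc numbered 348, and 786 the reverse. At the stricter q-value these were 157 and 426, with equally long lists the reverse numbered 500, and by nearest gene the first numbered 227. With each library left out, where fewer libraries have to agree, they ranged from 498 to 1414 and from 894 to 2151. Without S2 replicate 3 they were 1414 and 894, so the order of the counts turned around. Without S2 replicate 1 they were 498 and 1464, and without S2 replicate 2 they were 618 and 1034.

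The lines share replicate numbers 1 and 2, but nothing says that these mark a shared day or batch. The deviations of same-numbered libraries from the mean of their line correlated at -0.189 for number 1 and -0.0384 for number 2 over 8532 genes. With 2 Kc libraries these deviations are exact opposites in Kc, so S2 replicate 1 correlated at 0.189 with Kc replicate 2. The correlations therefore cannot decide whether the numbers mark a batch. With the replicate block, the mean difference within numbers was 1.5 genes for the count, 87.7 points for Flacc, 33.6 for fl(2)d and -1.88 for Mettl3, and 1608 genes were higher in S2 in both pairs and 1068 lower. With the block no p under 0.5 is possible.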
